A study of Mus musculus with 6 samples.

Results

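Il18 and the genes of the epithelial inflammasome were followed in RNA from mouse small intestinal epithelium. The 7 genes were taken by name from the 51912 genes listed: the cytokine Il18, the sensors Nlrp6 and Nlrc4, the adaptor Pycard, the caspases Casp1 and Casp4, and the pore former Gsdmd. The choice set no threshold on a measured value, and each symbol matched 1 gene. The libraries came from sorted epithelial cells of C57BL/6 mice kept in 3 ways. Antigen-free (AF) mice met neither a microbiota nor food as a source of foreign antigen, germ-free (GF) mice carried no microbiota, and specific pathogen free (SPF) mice lacked only particular pathogens. Each group had 2 libraries, named by the number in their labels: AF replicates 2 and 3, GF replicates 1 and 3, and SPF replicates 3 and 4. AF versus GF therefore asks about food antigens in mice without a microbiota, GF versus SPF about the microbiota, and AF versus SPF about both, while AF and GF averaged (the microbiota-free mean) against SPF uses all libraries. All mice shared the strain, and no genetic change is named. The sources used here give no age, no makeup of the diets and no stretch of small intestine. Any other difference between the AF and GF diets therefore cannot be told apart from food antigens. No label says that the libraries of a group came from separate mice, and the p-values reflect how far these libraries vary, which could be technical.

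An inflammasome is a protein complex that assembles when a sensor detects a microbial product or cell damage. The sensor recruits the adaptor ASC, encoded by Pycard, which in turn activates caspase-1; caspase-1 cuts the precursor of interleukin-18 into its active form and cuts gasdermin D, which then opens pores in the cell membrane. Caspase-11, the product of mouse Casp4, binds bacterial lipopolysaccharide in the cytosol and cuts gasdermin D directly. In the gut, epithelial cells are a main source of interleukin-18, which acts on lymphocytes and on the epithelium itself in barrier defence. RNA levels say nothing of cleavage or secretion, and neither was measured here.

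Il18 and Casp4 had the smallest p-values of the 7 genes across the 3 groups, so the 250 bases before their RefSeq start sites are printed. They lie on the plus strand of chromosome 9 in GRCm38.p6, at chr9:50554450-50554699 for Il18 and at chr9:5308599-5308848 for the first of 2 Casp4 windows. Capitals mark matches to the NF-kappaB consensus, and the Il18 window has none. The RefSeq start of Il18 lies before, and that of Casp4 after, the gene start in the GENCODE annotation used for the counts' gene names.
Il18: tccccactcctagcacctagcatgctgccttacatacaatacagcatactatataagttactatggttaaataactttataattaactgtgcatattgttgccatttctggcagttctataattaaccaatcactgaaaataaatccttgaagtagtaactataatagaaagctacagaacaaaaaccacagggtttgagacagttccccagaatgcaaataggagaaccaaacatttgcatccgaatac
Casp4: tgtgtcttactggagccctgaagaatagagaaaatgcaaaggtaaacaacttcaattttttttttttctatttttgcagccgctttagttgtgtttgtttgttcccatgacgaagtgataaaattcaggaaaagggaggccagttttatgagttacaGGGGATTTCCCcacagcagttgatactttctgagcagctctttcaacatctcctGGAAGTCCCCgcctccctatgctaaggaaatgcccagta

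Both strands of the windows were searched for 3 motifs that signalling in infected epithelium is known to use. These were the interferon-stimulated response element core (GAAA, then 2 bases of any kind, then GAAA), the gamma-activated site TTCNNNGAA and the NF-kappaB consensus. Windows existed for 6 of the 7 genes, 7 windows in all. The Casp4 window held NF-kappaB matches at bases -93 to -83, where overlapping matches on both strands run together, and at bases -39 to -30 before the start. None of the 3 motifs was matched in the windows of Il18, Casp1, Nlrp6, Nlrc4 and Pycard. Of all 32851 mouse windows, 7.25% held the NF-kappaB consensus, 7.02% the gamma-activated site and 2.98% the interferon-stimulated response element core. A match is a run of letters, not a bound site.

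Totals ran between 16109470 and 19417012 expected counts, and a single count stood for 0.0365 to 0.0785 CPM (counts per library total, scaled by edgeR's TMM factors), the unit of the levels below. The epithelial marker Epcam lay at 574 to 750 CPM in every library, against 1.96 to 17.0 CPM for Ptprc, which marks blood-derived cells. The libraries of a group differed in their mix of epithelial cells. The summed level of 9 crypt and cycling markers was 193 and 309 CPM in AF, 546 and 207 CPM in GF, and 470 and 48.1 CPM in SPF. The list of T cell and intraepithelial lymphocyte markers summed to 18.1 and 13.4 CPM in AF, 36.1 and 339 CPM in GF, and 199 and 73.7 CPM in SPF. The Y-linked gene Ddx3y was at 8.21 to 12.6 CPM in AF and GF and at 0 in SPF, while Xist was at 0 and 0.178 CPM in AF, 0.109 and 14.8 CPM in GF, and 129.7 and 96.6 CPM in SPF. Sex therefore cannot be told apart from the difference between SPF and the other groups, and GF replicate 3 held transcripts of both kinds. The names of the deposited tables end in a number that is the same within a group and differs between groups, and what it stands for is not stated, so it cannot be told apart from group.

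**Figure D1:**
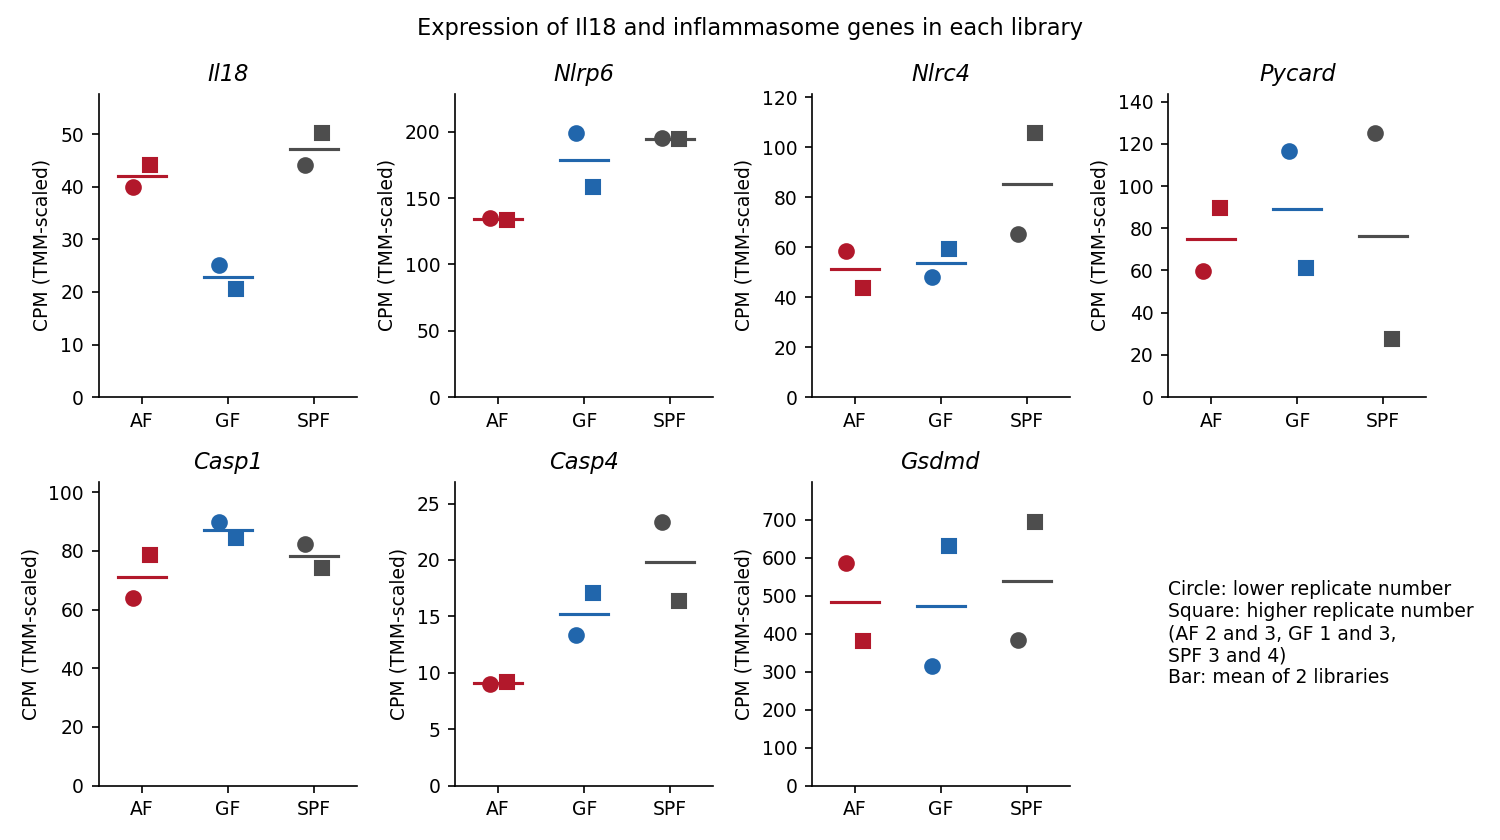
Level of each of the 7 genes in CPM on TMM-scaled totals (vertical axes from 0, 1 panel per gene) in AF, GF and SPF; each point is 1 library, and each bar the mean of 2. The GF libraries of Il18, at 25.0 and 20.6 CPM, and the AF libraries of Casp4, at 9.03 and 9.15 CPM, sit below the other 4.

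All 7 genes were expressed and passed the low-count filter. Compared per length, as TPM (transcript abundance per length, relative to the library), Gsdmd had the highest mean over the 6 libraries, 304 TPM, and ranked first of the 7 in every library. Pycard followed at 114 TPM, Casp1 at 63.9 TPM, Il18 at 57.1 TPM and Nlrp6 at 43.6 TPM. These 4 genes exchanged places between libraries, none of them first or among the last 2, so their order is within the spread. Nlrc4 at 17.7 TPM and Casp4 at 14.3 TPM took the last 2 places in each library, in either order. Among the 13644 genes tested, the mean of Gsdmd stood at the 98.1 percentile and that of Casp4 at the 70.5 percentile.

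No gene of the 7 passed an adjusted p of 0.05 in any comparison by edgeR's quasi-likelihood test with Benjamini-Hochberg adjustment over 13644 genes. The same test called 0.0147% of all genes in GF versus SPF, 0.0147% in AF versus GF (0.00733% higher and 0.00733% lower), 0.044% in AF versus SPF and 0.0293% for the microbiota-free mean versus SPF, so it called very few genes at all. At an unadjusted p below 0.05, 1 of 7 was lower in GF than in SPF, against 3.51% of all genes. In AF versus GF, 1 was higher and 1 lower, against 1.52% and 2.07% of all genes. In AF versus SPF, 1 was lower, against 6.52% of all genes, and in the microbiota-free mean versus SPF, 3 were lower, against 6.79%. DESeq2 and edgeR's likelihood ratio test each called 1 of the 7, Il18 in GF versus SPF, while they called 0.586% and 0.711% of all genes there. In the other comparisons they called none of the 7, against 0.374% and 0.388% of all genes in AF versus GF, 1.97% and 2.18% in AF versus SPF, and 1.83% and 1.97% in the microbiota-free mean versus SPF. Without the low-count filter the quasi-likelihood test called Il18 in GF versus SPF and Casp4 in AF versus SPF, and 2.13% of all genes in GF versus SPF, 1.16% in AF versus GF, 3.53% in AF versus SPF and 3.68% in the microbiota-free mean versus SPF. limma on log2(TPM + 1) called none, against 0.0413%, 0.0743%, 0.066% and 0% in GF versus SPF, AF versus GF, AF versus SPF and the microbiota-free mean versus SPF.

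Most fitted values of the 7 genes were below 0. In AF versus SPF all 7 log2 fold changes were below 0, with a median of -0.17 against 0.011 over all genes tested. Those of Il18, Pycard, Gsdmd and Casp1 were within 1 SE of 0. Over 21 alternative settings Pycard, Gsdmd and Casp1 rose to as much as 1.43, 0.34 and 0.00068 in AF versus SPF, so not all 7 stayed below 0. Il18 ran between -0.56 and -0.074 there. In GF versus SPF 5 of 7 were below 0, with a median of -0.19 against 0.022. In AF versus GF 5 of 7 were below 0, with a median of -0.25 against -0.023. For the microbiota-free mean versus SPF 5 of 7 were below 0, with a median of -0.33 against 0.0084. The comparisons share libraries, so these counts are not independent of each other. With library totals alone Nlrp6 turned to 0.056 in GF versus SPF and Gsdmd to -0.24 in AF versus GF. Pycard and Casp1 turned to -0.048 and -0.025 in the microbiota-free mean versus SPF. These values were all within 1 SE of 0. The median of all genes shifted by 0.16, -0.38 and -0.031 in the same comparisons. Over the 21 settings sign changes numbered 2 for Nlrp6, 3 for Pycard and 3 for Gsdmd in GF versus SPF. In AF versus GF they numbered 2 for Nlrc4, 2 for Pycard and 6 for Gsdmd. For the microbiota-free mean versus SPF they numbered 9 for Casp1, 5 for Pycard and 3 for Gsdmd.

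Interleukin-18 is the cytokine of the group, and its RNA stood lowest in GF. Il18 (ENSMUSG00000039217, GRCm38 chr9:50554827-50581840, plus strand) had 39.9 and 44.1 CPM in AF, 25.0 and 20.6 CPM in GF, and 44.1 and 50.2 CPM in SPF. The expected counts behind these were 508 and 743 in AF, 687 and 303 in GF, and 963 and 732 in SPF. Both GF libraries lay below the other 4, while AF and SPF touched at 44.1 CPM. Group means were 42.0 ± 3.01 CPM in AF, 22.8 ± 3.17 CPM in GF and 47.2 ± 4.32 CPM in SPF (SD, n = 2 each). The difference of the GF mean from both others was larger than the spread between the libraries of any group.

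The log2 fold change of Il18 in GF versus SPF was -1.05 (SE 0.20, 95% interval -1.53 to -0.56), with an adjusted p of 0.738 by edgeR's quasi-likelihood test. Over the 21 alternative settings that adjusted p ran between 0.0167 and 1.00 while the log2 fold change stayed between -1.20 and -0.85. DESeq2 gave an adjusted p of 0.0375 and edgeR's likelihood ratio test 0.0418. The AF versus GF log2 fold change was 0.88 (SE 0.20, 95% interval 0.40 to 1.36), with an adjusted p of 1.00 by the quasi-likelihood test. AF and SPF differed by -0.17 on the log2 scale (SE 0.20, 95% interval -0.64 to 0.31), with an adjusted p of 0.797 by the same test. In the test for any difference among the 3 groups, Il18 ranked 96 of 13644 genes by p (adjusted p 0.598 by edgeR's quasi-likelihood test).

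The scale matters for the AF and GF comparison. In TPM, Il18 had 43.4 and 61.6 in AF, 55.2 and 27.3 in GF, and 89.8 and 65.2 in SPF. On this scale the AF and GF libraries overlapped and SPF stayed above both. With limma on log2(TPM + 1) the Il18 difference in AF versus GF was 0.40, the median of all genes being shifted by -0.36. Library totals without TMM scaling gave 0.50, with a median shift of all genes of -0.38. The direction was the same on all of these scales.

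**Figure D2:**
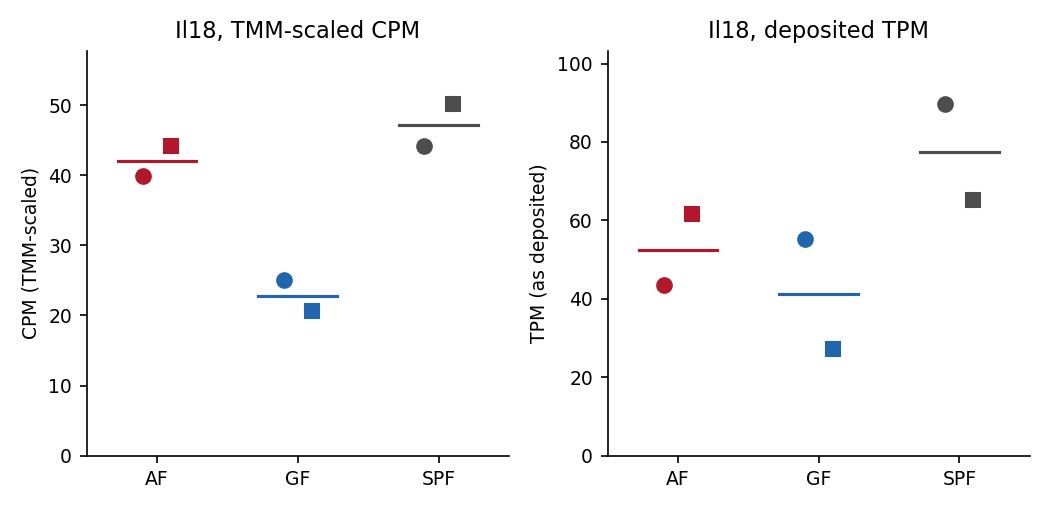
Il18 in each AF, GF and SPF library as CPM on TMM-scaled totals (left) and as deposited TPM (right); each point is 1 library and each bar the mean of 2. In CPM both GF libraries lie below the rest, while in TPM GF replicate 1, at 55.2 TPM, lies between the AF libraries.

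The 2 GF libraries differed in cell mix and in TMM factor, which was 1.41 for GF replicate 1 and 0.872 for GF replicate 3. CPM here uses these factors and the deposited TPM does not. Their Il18 was 25.0 and 20.6 in CPM but 55.2 and 27.3 in TPM. GF replicate 1 was high in crypt markers (546 CPM) and GF replicate 3 high in lymphocyte markers (339 CPM). With the crypt marker score as a covariate, the Il18 log2 fold change in GF versus SPF was -1.03 and in AF versus GF 0.87. Without GF replicate 1 the value in GF versus SPF was -1.20, and without GF replicate 3 it was -0.92. Among the marker lists, genes of the proximal small intestine summed to 348 and 322 CPM in AF, 210 and 261 CPM in GF, and 354 and 782 CPM in SPF. Markers of the distal small intestine summed to 640 and 464 CPM in AF, 1218 and 459 CPM in GF, and 555 and 434 CPM in SPF. Both GF libraries were thus lowest for the proximal list, and 1 of them highest for the distal list. Stromal and endothelial markers summed to 2.51 and 3.98 CPM in AF, 4.70 and 8.28 CPM in GF, and 5.63 and 2.40 CPM in SPF. Across the 6 libraries, which share their scaling, r with Il18 was 0.75 for the proximal list, -0.71 for the stromal list and -0.55 for macrophages and dendritic cells, and between -0.47 and 0.41 for the other lists. The part of gut region or of other cells in the Il18 values was not tested. In a bulk sample, fewer cells of a type and less RNA per cell cannot be told apart.

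The sensors come next in the pathway. Nlrp6 (ENSMUSG00000038745, chr7:140920902-140929192, plus strand) encodes a sensor that is well expressed in gut epithelium. It had 135 and 133 CPM in AF, 199 and 158 CPM in GF, and 195 and 194 CPM in SPF. Both AF libraries lay below all others, and GF overlapped SPF. The log2 fold change was -0.54 in AF versus SPF (SE 0.24, 95% interval -1.12 to 0.049), with an adjusted p of 0.467 by edgeR's quasi-likelihood test. The AF versus GF value was -0.41 (SE 0.24, adjusted p 1.00 by that test), and the GF versus SPF value -0.12 (SE 0.24). In TPM the AF libraries, at 23.3 and 30.3, were again below GF at 71.7 and 31.2 and SPF at 65.3 and 39.5. On log2(TPM + 1), however, the median of all genes shifted by -0.36 in AF versus GF and by -0.31 in AF versus SPF.

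Nlrc4 (ENSMUSG00000039193, chr17:74425438-74459142, minus strand) encodes the partner through which NAIP proteins signal after they bind bacterial flagellin and secretion system proteins. It had 58.7 and 43.6 CPM in AF, 48.2 and 59.4 CPM in GF, and 65.3 and 105.7 CPM in SPF. Both SPF libraries were above the other 4, and AF and GF overlapped. The microbiota-free mean was lower by a log2 fold change of -0.70 (SE 0.26, 95% interval -1.34 to -0.072), with an adjusted p of 0.404 by edgeR's quasi-likelihood test. In CPM, Nlrc4 was the only one of the 7 in which the 4 AF and GF libraries did not overlap SPF, and 11.8% of all genes were lower without overlap there. The size depended on SPF replicate 4: without it the log2 fold change was -0.32, and with the crypt marker score as a covariate it was -0.46. In TPM the SPF libraries, at 24.83 and 24.8, were also above AF at 11.5 and 11.4 and GF at 19.8 and 13.6. The AF values share the shift of all genes given for Nlrp6. On the TPM scale the AF and GF libraries of Il18 and Gsdmd also lay below both SPF libraries.

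Pycard (ENSMUSG00000030793, chr7:127989708-127993867, minus strand), the adaptor, differed more within groups than between them. It had 59.8 and 89.5 CPM in AF, 116.5 and 61.3 CPM in GF, and 125.1 and 27.6 CPM in SPF. The 2 SPF libraries were the highest and the lowest of all 6. Its log2 fold changes were 0.22 in GF versus SPF, -0.25 in AF versus GF and -0.033 in AF versus SPF, with an SE of 0.70 in each. Without SPF replicate 3 the first became 1.68 and the last 1.43, and without SPF replicate 4 they became -0.50 and -0.75. The exons of Pycard share 485 of their 3800 bases with Gm45205 on the opposite strand, and whether the counting used strand is not stated. At most 36.45 expected counts were assigned to Gm45205 in a library.

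Casp1 (ENSMUSG00000025888, chr9:5298517-5307265, plus strand), the protease that matures interleukin-18, had its 2 highest CPM values in GF. It had 64.0 and 78.4 CPM in AF, 90.0 and 84.4 CPM in GF, and 82.4 and 74.1 CPM in SPF. AF overlapped SPF in CPM. In TPM it had 34.9 and 56.7 in AF, 102.6 and 53.7 in GF, and 86.9 and 48.3 in SPF, and all 3 groups overlapped. The log2 fold change was 0.16 in GF versus SPF (SE 0.21, 95% interval -0.36 to 0.67), -0.29 in AF versus GF (SE 0.21, 95% interval -0.81 to 0.23) and -0.14 in AF versus SPF (SE 0.21, 95% interval -0.65 to 0.38). With log2(TPM + 1) the AF versus GF value was -0.73 and the AF versus SPF value -0.53, and with library totals alone -0.64 and -0.34. The medians of all genes in AF versus SPF shifted by -0.31 and -0.20 on those 2 scales, and in AF versus GF as given for Il18.

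Casp4 (ENSMUSG00000033538, chr9:5308828-5336783, plus strand) begins 1562 bases after the end of Casp1 on the same strand, and its values were spread differently. It had 9.03 and 9.15 CPM in AF, 13.4 and 17.1 CPM in GF, and 23.4 and 16.3 CPM in SPF, from 115 to 511 expected counts. Both AF libraries lay below the other 4, and GF overlapped SPF. The log2 fold change in AF versus SPF was -1.13 (SE 0.27, 95% interval -1.79 to -0.47), with an adjusted p of 0.371 by edgeR's quasi-likelihood test. Between AF and GF it was -0.74 (SE 0.27, 95% interval -1.40 to -0.082), with an adjusted p of 1.00 by that test. In GF versus SPF it was -0.39 (SE 0.27), which became -0.11 without SPF replicate 3 and -0.63 without SPF replicate 4.

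Casp4 is also made by white blood cells, and markers of these moved with it. The T cell and intraepithelial lymphocyte sum given above was lowest in the 2 AF libraries, with 0 to 2 of its 10 genes at 0 in a library. The macrophage and dendritic cell sum was 6.91 and 6.66 CPM in AF, 11.3 and 15.9 CPM in GF, and 14.8 and 9.33 CPM in SPF, with 0 to 3 of its 11 genes at 0. The B cell sum was 0.0785 and 0.178 CPM in AF, 0.328 and 0.611 CPM in GF, and 0.779 and 0.343 CPM in SPF. It is near the floor, with 1 to 4 of its 5 genes at 0 and no gene above 9 expected counts in a library. The AF libraries were thus lowest in the sums of all 3 lists, as they were in Casp4. Single genes did not all follow: C1qa of macrophages was at 0.471 and 0.535 CPM in AF, 0.328 and 0.543 CPM in GF, and 0.229 and 0.137 CPM in SPF. The T cell marker Cd3e was at 0.628 and 0.297 CPM in AF, 0.838 and 7.73 CPM in GF, and 6.32 and 1.85 CPM in SPF, and Csf1r of macrophages did not exceed 1.90 CPM. Neutrophil markers were near 0, with 5 or 6 of 6 genes at 0 in each library. The part of such cells in the Casp4 values was not tested.

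Gsdmd (ENSMUSG00000022575, chr15:75862327-75867408, plus strand), the pore former, was the most abundant of the 7 per length and also split within groups. It had 587 and 382 CPM in AF, 316 and 630 CPM in GF, and 382 and 695 CPM in SPF. All 3 groups overlapped. The log2 fold changes were -0.19 in GF versus SPF, 0.035 in AF versus GF and -0.15 in AF versus SPF, with SEs near 0.50. In TPM the groups did not overlap, with 264 and 228 in AF, 297 and 331 in GF, and 333 and 374 in SPF. On log2(TPM + 1) the AF versus SPF difference was -0.52, the median of all genes being shifted by -0.31 on that scale.

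**Figure D3:**
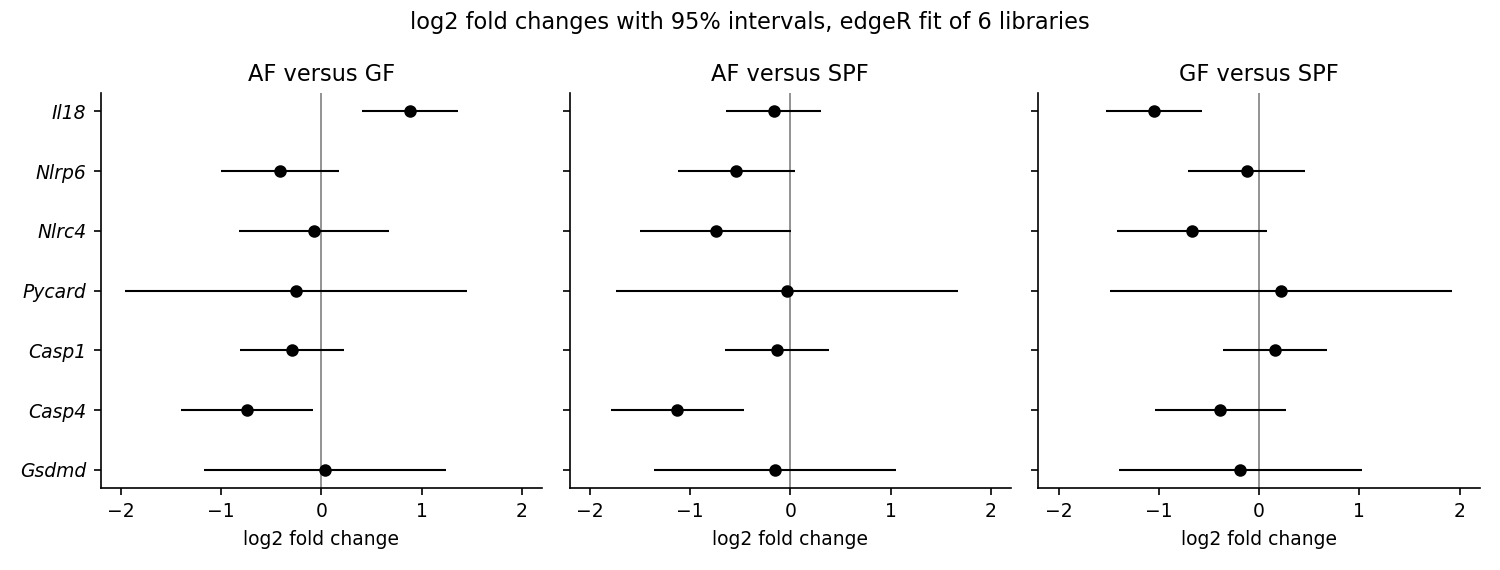
Log2 fold change of each of the 7 genes from edgeR's quasi-likelihood fit in AF versus GF, AF versus SPF and GF versus SPF (horizontal axes), with bars for 95% intervals; the line at 0 marks no difference. The intervals of Il18 in GF versus SPF (-1.53 to -0.56) and of Casp4 in AF versus SPF (-1.79 to -0.47) lie below 0, and those of Pycard and Gsdmd are the widest.

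Counted without regard to a test, 1 of the 7 genes was higher and 2 were lower in both GF libraries than in both SPF libraries, against 16.8% and 17.1% of all genes. In AF versus GF 1 was higher and 3 were lower without overlap, against 15.8% and 17.8%. In AF versus SPF none was higher and 3 were lower, against 22% and 22.6% of all genes. The 3 lower ones in AF versus SPF were Casp4, Nlrp6 and Nlrc4.

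Pycard was higher where the crypt markers of the library were higher, in CPM and in TPM, and Gsdmd was lower there, but only in CPM. This was not particular to crypt markers. In CPM, r of Pycard with the summed markers was -0.92 for villus enterocytes, -0.90 for the pan-epithelial list, 0.91 for Paneth cells and 0.83 for goblet cells. For Gsdmd these were 0.88, 0.88, -0.80 and -0.49. Over the 6 libraries the CPM of Pycard was higher where the crypt marker score was higher (Pearson r = 0.99, exact permutation p = 0.0111, adjusted 0.0389; Spearman rho = 0.89, exact permutation p = 0.0333, adjusted 0.117). The CPM of Gsdmd was lower where the score was higher (r = -0.85, exact permutation p = 0.00556, adjusted 0.0389; rho = -0.94, exact permutation p = 0.0167, adjusted 0.117). The crypt marker score is the mean over the 9 markers of centred log2 levels. These are two-sided tests, adjusted by Benjamini-Hochberg over the 7 genes on each scale. They were run for the 7 genes only, so the share of all genes that moved as closely with the score is not known here. In TPM, a scale added after the data were seen, Pycard had r = 0.90 (exact permutation p = 0.00556, adjusted 0.0389) and rho = 0.94 (exact permutation p = 0.0167, adjusted 0.117), while Gsdmd had r = -0.48 (exact permutation p = 0.308, adjusted 0.719) and rho = -0.37 (exact permutation p = 0.497, adjusted 0.696). Without the 2 libraries farthest from the median score, GF replicate 1 and SPF replicate 4, r in CPM was 0.99 for Pycard and -0.91 for Gsdmd over 4 libraries, and r in TPM was 0.99 for Pycard and 0.093 for Gsdmd, so the relation of Gsdmd depended on the scale. With the score as a covariate, the log2 fold change in GF versus SPF was -0.18 for Pycard and 0.17 for Gsdmd. In CPM Nlrc4 had r = -0.82 (exact permutation p = 0.122, adjusted 0.285) and rho = -0.54 (exact permutation p = 0.297, adjusted 0.520), but r = 0.086 without those 2 libraries, so its relation rested on them. In CPM Il18 had r = -0.33 (exact permutation p = 0.558, adjusted 0.782) and rho = -0.26 (exact permutation p = 0.658, adjusted 0.768), and r without those 2 was 0.69. A group holds 2 libraries, too few for a value within each group.

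**Figure D4:**
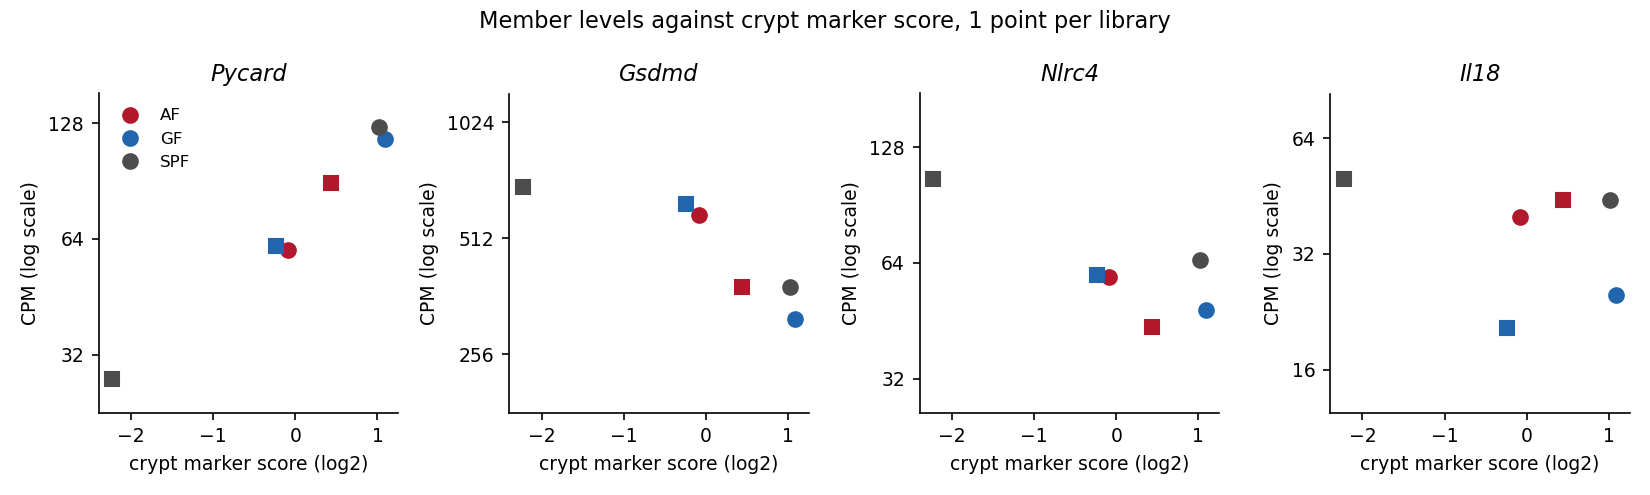
Level of Pycard, Gsdmd, Nlrc4 and Il18 (CPM, log axis) against the crypt marker score of the library (log2 units) in AF, GF and SPF; each point is 1 library. In CPM Pycard is higher (r = 0.99) and Gsdmd lower (r = -0.85) at higher scores, while the GF points of Il18, at 25.0 and 20.6 CPM, lie low at scores of 1.09 and -0.24.

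The genes most like Il18 in pattern, by Pearson's r of log2 CPM over the 6 libraries among 7005 genes with a mean of at least 10 CPM, were Dnajb9 (r = 0.98), Rasa1 (0.98), Zfp36l1 (0.97), Adgra3 (0.97) and D2hgdh (0.96). The points share their library and its scaling, and the best of 7005 genes would be high by selection, so r is a description. Dnajb9, a co-chaperone of the endoplasmic reticulum, had 17.4 and 20.1 CPM in AF, 13.1 and 11.7 CPM in GF, and 18.5 and 22.8 CPM in SPF. Rasa1, a Ras GTPase-activating protein, covered a far narrower range, 13.1 to 16.1 CPM over all 6.

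The rest of the pathway was read in 6 lists with 77 genes, 58 of which passed the filter. None passed the adjusted threshold in any comparison by edgeR's quasi-likelihood test. The counts that follow are of genes at an unadjusted p below 0.05, and the shares of all genes at that p are 3.2% higher and 3.51% lower in GF versus SPF, 1.52% and 2.07% in AF versus GF, 4.76% and 6.52% in AF versus SPF, and 4.76% and 6.79% in the microbiota-free mean versus SPF. List medians of the log2 fold change are of the genes tested, and stand against the medians over all genes given above.

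Of 12 other sensors, 7 were tested, with a median of -0.11 in GF versus SPF, 0.29 in AF versus GF and 0.18 in AF versus SPF. Nlrp3, the sensor best known from macrophages, had at most 3 expected counts in a library, Nlrp1a, Nlrp10 and Nlrp12 at most 3 as well, and Mefv none. The flagellin receptor gene Naip5 had 86.7 and 97.0 TPM in AF, 92.6 and 80.4 TPM in GF, and 65.9 and 66.0 TPM in SPF, the SPF libraries being lowest in TPM. In CPM, Naip5 in SPF, at 238 and 386, overlapped GF, at 309 and 482. Nlrp9b, which in mouse gut epithelium is known to sense viral RNA, had 98.2 and 81.3 TPM in AF, 51.8 and 85.0 TPM in GF, and 113 and 164 TPM in SPF. Naip1, whose protein binds a needle protein of bacterial secretion systems, had 54.3 and 51.0 CPM in AF, 40.1 and 27.1 CPM in GF, and 44.5 and 38.7 CPM in SPF. It was the 1 sensor at an unadjusted p below 0.05, higher in AF versus GF (log2 fold change 0.65, SE 0.24, adjusted p 1.00 by edgeR's quasi-likelihood test). NAIP genes are near copies, but RSEM's posterior SD stayed at or under 0.83% of the count for Naip1, Naip2, Naip5 and Naip6.

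Of 7 other caspases, 6 were tested, with a median of -0.39 in GF versus SPF, -0.085 in AF versus GF and -0.55 in AF versus SPF. Casp6, a caspase of apoptosis, had a log2 fold change of -0.49 in AF versus SPF (SE 0.20, adjusted p 0.440 by edgeR's quasi-likelihood test).

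Of 9 genes of gasdermins and membrane rupture, 7 were tested, with a median of 0.81 in GF versus SPF, -0.74 in AF versus GF and -0.023 in AF versus SPF. Higher were 2 in GF versus SPF, 1 in AF versus SPF and 2 in the microbiota-free mean versus SPF, and none was lower. Gsdme, another pore-forming gasdermin, had 33.4 and 21.2 CPM in AF, 32.4 and 36.6 CPM in GF, and 18.9 and 20.5 CPM in SPF. Its log2 fold change in GF versus SPF was 0.81 (SE 0.26, adjusted p 0.738 by edgeR's quasi-likelihood test). Gsdma, of the same family, had 15.0 and 21.2 CPM in AF, 9.95 and 25.7 CPM in GF, and 8.98 and 4.39 CPM in SPF. Gsdmc4 had 9.03 and 10.9 CPM in AF, 24.4 and 21.8 CPM in GF, and 30.1 and 1.30 CPM in SPF, so the SPF libraries held its highest and its lowest value.

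Of 15 genes of the interleukin-1 family and its receptors, 7 were tested, with a median of 0.13 in GF versus SPF, 0.13 in AF versus GF and -0.33 in AF versus SPF. In GF versus SPF 1 was higher and 2 lower, in AF versus GF 1 lower, in AF versus SPF 1 higher and 1 lower, and in the microbiota-free mean versus SPF 1 higher and 2 lower. Il18bp, whose protein binds and blocks interleukin-18, had 6.52 and 7.01 CPM in AF, 2.95 and 8.89 CPM in GF, and 11.9 and 18.2 CPM in SPF. Both SPF libraries were above the other 4, and the log2 fold change for the microbiota-free mean versus SPF was -1.25 (SE 0.45, adjusted p 0.399 by edgeR's quasi-likelihood test). Il18r1, a chain of the interleukin-18 receptor, had 17 and 40 expected counts in AF, 35 and 46 in GF, and 8 and 3 in SPF, or at most 3.12 CPM in a library. Il1b, the other main caspase-1 substrate among cytokines, had 0 and 2 expected counts in AF, 13 and 20 in GF, and 23 and 29 in SPF. Sigirr, an inhibitory receptor, had 56.0 and 46.1 CPM in AF, 34.9 and 58.6 CPM in GF, and 32.0 and 53.6 CPM in SPF, and the groups overlapped.

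Of 24 regulators and partners, 23 were tested; 5 were lower in GF versus SPF, 2 in AF versus GF, 8 in AF versus SPF and 9 in the microbiota-free mean versus SPF, and 1 was higher in each of the last 2. The median was -0.11 in GF versus SPF, -0.11 in AF versus GF and -0.73 in AF versus SPF. Panx1, a channel that releases ATP, had 17.5 and 16.9 CPM in AF, 27.8 and 29.7 CPM in GF, and 29.7 and 30.0 CPM in SPF. It shared the AF-low pattern of Casp4 and Nlrp6, with a log2 fold change in AF versus SPF of -0.79 (SE 0.17, adjusted p 0.349 by edgeR's quasi-likelihood test). Irgm1, an interferon-induced GTPase, had 19.5 and 22.7 CPM in AF, 17.6 and 22.5 CPM in GF, and 40.0 and 33.9 CPM in SPF. Serpinb1a, whose human counterpart inhibits inflammatory caspases, was at 388 and 326 CPM in AF, 356 and 417 CPM in GF, and 367 and 502 CPM in SPF, and the groups overlapped. Txnip, a thioredoxin-binding protein, was at 192 and 249 CPM in AF, 178 and 173 CPM in GF, and 164 and 161 CPM in SPF.

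Of 10 genes of the interleukin-22 axis, through which lymphoid cells act on the epithelium, 8 were tested. In GF versus SPF 5 were lower, 2 in AF versus GF, 6 in AF versus SPF and 6 in the microbiota-free mean versus SPF, and none was higher. The median was -0.91 in GF versus SPF, -0.35 in AF versus GF and -1.02 in AF versus SPF. Reg3g, an antibacterial lectin, had 30.9 and 38.4 CPM in AF, 216 and 237 CPM in GF, and 1576 and 686 CPM in SPF. Its log2 fold change in AF versus SPF was -5.03 (SE 0.53, adjusted p 0.119 by edgeR's quasi-likelihood test). In CPM Il18 did not follow that order, since its AF libraries stood above GF, though AF and GF overlapped in TPM. Reg3b, a close relative of Reg3g, had a log2 fold change of -3.77 (SE 0.59) in AF versus SPF and -1.36 (SE 0.54) in AF versus GF.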

How the data were processed

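RNA of sorted small intestinal epithelial cells was sequenced in 6 libraries, 2 each from AF, GF and SPF mice, grouped by their labels. Per the submitters' processing notes, the tools were RSEM, edgeR 3.16.5 and STAR 2.5.2b on GRCm38/mm10. An RSEM version, an annotation release and a strand setting are not stated there. Per the file headers, the authors deposited RSEM expected counts per gene, with no scaling between libraries, and TPM values, scaled to length and library. RSEM's posterior standard deviations and effective lengths are in the same deposited tables.

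Symbols and 1-based gene coordinates came from a GENCODE M21 annotation of GRCm38, which named 51719 of 51912 IDs. Promoter windows came from RefSeq (GRCm38.p6). Expected counts were rounded, since 23.5% of the values above 0 were not whole to within 0.001. After filterByExpr, 13644 genes were fitted with edgeR 4.0.16 (R 4.3.3, DESeq2 1.42.0, limma 3.58.1, and 1.17.8 of the data.table package): TMM scaling, estimateDisp and a quasi-likelihood F test over all 6 libraries, with 3 residual and 3.08 prior degrees of freedom, adjusted by Benjamini-Hochberg over all genes tested and called below 0.05. Standard errors are the absolute log2 fold change over the square root of F, and 95% intervals use a t distribution with 6.08 degrees of freedom. The code was tested on simulated counts. The 7 genes, the 6 pathway lists and the marker lists were chosen with earlier results of these data known. Beside the 7 genes, the text names per pathway list any gene past the threshold, otherwise the 2 with the smallest p and the 2 with the highest mean TPM, and the 5 genes most like Il18; predicted genes, pseudogenes and receptor segments were left out of the last. Other genes named were at or near 0 counts or are near copies of a named gene, and were chosen after their values were seen. Some genes that this rule names are not reported here. The 21 alternatives changed the test, scaling, filter, covariate or libraries, and leaving out mitochondrial genes was added after the data were seen, as was TPM for the relation with the crypt score. Mitochondrial genes held between 17.9% and 35.3% of the expected counts of a library.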

Additional observations from a re-analysis of the deposited data

How the results depend on the processing

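Over 21 alternatives, 588 values were recomputed for the 7 genes, and 584 kept their side of the threshold without a counted reversal. A sign change (41 values) was not counted where the value of the main fit lay within 1 SE of 0 and the new value was not called. The new value could be larger: Pycard in AF versus SPF went from -0.033 to 1.43 without SPF replicate 3. The 4 values outside the 584 passed an adjusted p of 0.05. Il18 in GF versus SPF had a log2 fold change of -1.05 with DESeq2, -1.05 with edgeR's likelihood ratio test and -1.05 without a low-count filter (adjusted p 0.0375, 0.0418 and 0.0167), so that 1 of the 7 genes was called there in place of 0. Casp4 in AF versus SPF had -1.16 without that filter (adjusted p 0.0258), again 1 gene called in place of 0, where 2.13% of all genes in GF versus SPF and 3.53% in AF versus SPF were called without the filter. The adjusted p of Il18 for any difference among groups was 0.0238 without the filter. The cause was not tested. Over the alternatives the number of genes called among all genes ran from 0 to 484 in GF versus SPF, 0 to 264 in AF versus GF, 0 to 804 in AF versus SPF and 0 to 1063 in the microbiota-free mean versus SPF, against 2, 2, 6 and 4.

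Among the other named genes 63 of 2008 values newly passed the threshold, 22 of them without the low-count filter, 11 with the likelihood ratio test, 9 without SPF replicate 3 and 8 with DESeq2. A further 15 reversed, and the cause was not tested. In AF versus GF, Txnip turned to -0.0079 and Zfp36l1 to -0.020 with library totals alone. With log2(TPM + 1) Txnip was -0.068, Zfp36l1 -0.076, Adgra3 -0.13 and D2hgdh -0.053, and with log2(TPM + 0.1) they were -0.069, -0.077, -0.12 and -0.050. Naip1 in AF versus SPF was -0.16 and -0.17 on those 2 scales. The median of all genes in AF versus GF shifted by -0.38 with totals alone, -0.36 with log2(TPM + 1) and -0.42 with log2(TPM + 0.1). With a library left out, Gsdmc4 ran from -1.60 to 2.93 in AF versus SPF and from -0.99 to 3.53 in the microbiota-free mean versus SPF, the highest without SPF replicate 3 (adjusted p 0.0195 and 0.0132 by edgeR's quasi-likelihood test), and Nlrp9b from -1.17 to 0.097 in that last comparison, the highest without SPF replicate 4. A group left with 1 library is assumed to vary like the others. No paired analysis was possible because the groups compared share fewer than 2 replicate numbers. With 2 libraries a group, small differences were not detectable at this depth of replication.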
